A study of Homo sapiens with 20 samples.

Results

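RAB proteins are small GTPases that mark the membrane compartments of a cell, and the transcripts of 60 RAB genes were followed in the extracellular vesicles and in the cells of 10 colorectal cancer lines. The members were all symbols made of RAB, a number and at most a letter and a further digit, with RAB13 left out, and they are 60 of the 17113 protein-coding genes in the deposited count table. The RAB-like and RAB-interacting genes are not members, and RAB7B and RAB39A had no row in the table. The vesicle group held RNA of the vesicles that each of the 10 lines released into its medium (COLO-201, HCT 116, HT-29, LoVo, LS123, LS513, LS1034, SNU-C1, SW480 and WiDr; n = 10 libraries). The cell group held total RNA of the same 10 lines (n = 10 libraries), and both groups came from untreated cultures in RPMI-1640 or DMEM with 10% fetal bovine serum. Per the labels' protocols, an exosome RNA kit, SMART-Seq v4 amplification and Nextera XT were used for vesicles, and a stranded kit with removal of ribosomal RNA for cells. Vesicle origin and library kit therefore cannot be told apart in any comparison here. Each line gave 1 library of either kind, which makes the line the replicate, and the spread between cultures was not measured.

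A RAB protein switches between a GTP-bound form on the membrane and a GDP-bound form in the cytosol. Exchange factors load it with GTP, effectors read the loaded form to tether, move or fuse membranes, and GTPase-activating proteins turn it off, while a lipid tail added by prenylation holds it in the membrane. Different members serve different steps: RAB1, RAB2 and RAB6 act around the Golgi, RAB5 on early endosomes, RAB4 and RAB11 in recycling, RAB7A on the way to the lysosome, and RAB3, RAB8, RAB10 and RAB27 at the cell surface. RAB27A and RAB27B are known for docking multivesicular bodies at the plasma membrane before exosomes are released. What follows concerns their mRNAs, not the proteins.

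Vesicle libraries held 1.75 to 24.4 M counts and cell libraries 24.8 to 37.4 M. In vesicles, reads also covered genes silent in cells: 2037 genes that no cell library had more than 10 counts of were at a median of 2 to 26 counts in a vesicle library and of 0 to 1 in a cell library. A background expected from these genes, by length and GC content, amounted to 1.81 to 42.7% of all vesicle counts and to 0.0271 to 0.138% of all cell counts. It was over 15% in SNU-C1, LS123, WiDr, LoVo and LS1034 vesicles, and results are given below with this background subtracted where that ended a call. The 10 colorectal epithelial markers summed to 1769 to 18311 CPM (counts over the scaled library total) in vesicles and 3612 to 26580 CPM in cells. Leukocyte markers summed to 11.9 to 118 CPM in vesicles and 0.362 to 11.9 CPM in cells, and erythroid and platelet markers to 10.3 to 223 CPM in vesicles and 0.583 to 10.3 CPM in cells. Fibroblast and endothelial markers summed to 21.5 to 229 CPM in vesicles and 0.472 to 17.6 CPM in cells, and neuronal markers to 25.2 to 158 CPM in vesicles and 2.67 to 191 CPM in cells. None of these markers was at 0 in all vesicle libraries or in all cell libraries, and the part of the background and of such RNA in the results was not tested. Cells of HT-29 and WiDr deviated from the mean of all lines alike (r = 0.83 across genes), as did those of HCT 116 and LS123 (r = 0.77), against 0.33 for the next pair, so these lines may not be independent. Whether the cultures labelled HCT 116 and LS123 come from separate lines was not tested, and values are given under the labels as they stand.

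The RAB genes together made up 0.282 to 0.487% of the counts of a vesicle library (median 0.340%) and 0.336 to 0.574% of those of a cell library (median 0.474%), with the lower share in vesicles in 9 of 10 lines. Of the 60 members, 55 had enough counts to be tested, with RAB3C, RAB6C, RAB38, RAB39B and RAB41 left out. The filter asked for 0.407 CPM in 10 libraries, which 39 members reached in every cell library, while 16 passed with the help of vesicle counts and could more easily come out as higher there. Across these 55 genes the edgeR quasi-likelihood test found 10 higher and 21 lower in vesicles at an adjusted p under 0.05, with a median log2 fold change of -0.23. Of all 15130 genes tested, 28.6% were higher and 28.1% lower in vesicles, and their median was 0.01. Bulk libraries do not show whether fewer vesicles carried a transcript or each carried less of it, and the same holds for cells.

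The direction went with the level in cells. That level is also the denominator of the ratio. A split by it favours lower calls at high levels and higher calls at low levels for any gene. Among the 40 members whose cell libraries averaged 10 CPM or more (CPM after TMM scaling, used for all levels below), 2 were higher in vesicles, 21 lower and 17 not called. The same limit left 10024 genes in all, of which 5.29% were higher and 42.2% lower, so the share of 52.5% lower among these RAB genes stood beside a background that leaned the same way. Their median log2 fold change was -0.73, against -0.53 for all such genes. All 8 members called higher with less than 10 CPM in cells belong to the low-level genes described further on. Every vesicle library lay below every cell library for 0 members and for 4.35% of all genes. Whether these shares differ was not tested.

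How many RAB genes came out lower rested on the scaling of the libraries and on single lines. Scaling to library size alone gave 3 higher and 9 lower of the 40, beside 14.9% and 24.5% of all genes of that level. DESeq2 size factors gave 3 and 9 (12.3% and 27.9% of all such genes), and upper-quartile scaling gave 11 and 4 (25.5% and 17.5%), with RAB8A, RAB25, RAB27A, RAB28 and RAB32 among those called higher. Over all tested genes the shares higher and lower were 36.6% and 16.3% with library size, 35.2% and 18.5% with DESeq2 size factors, 46% and 11.6% with upper-quartile scaling, and 15% and 19.3% with the background subtracted. Under these scalings the median log2 fold change of all tested genes was 0.38 to 0.76, against 0.01 with TMM, and that of all tested RAB genes, at 0.14 to 0.55, was below it each time. With the expected background subtracted, 2 of the 40 were higher and 6 lower (15%), against 10.9% and 23.5% of all genes of that level. The 40 then had the higher median log2 fold change, -0.18 against -0.32 for all such genes. In the 5 lines of lowest background these medians were -0.24 and -0.40. Over all tested genes with the background subtracted, the RAB median was -0.16 and that of all genes -0.15. Without LoVo 7 of the 40 were lower in vesicles (17.5%, against 23.7% of all genes of that level), and without LS1034 13 were (32.5%, against 37.7%). The lower calls that held under all 3 other scalings and after background subtraction were 4: RAB6A, RAB14, RAB21 and RAB10.

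**Figure D1:**
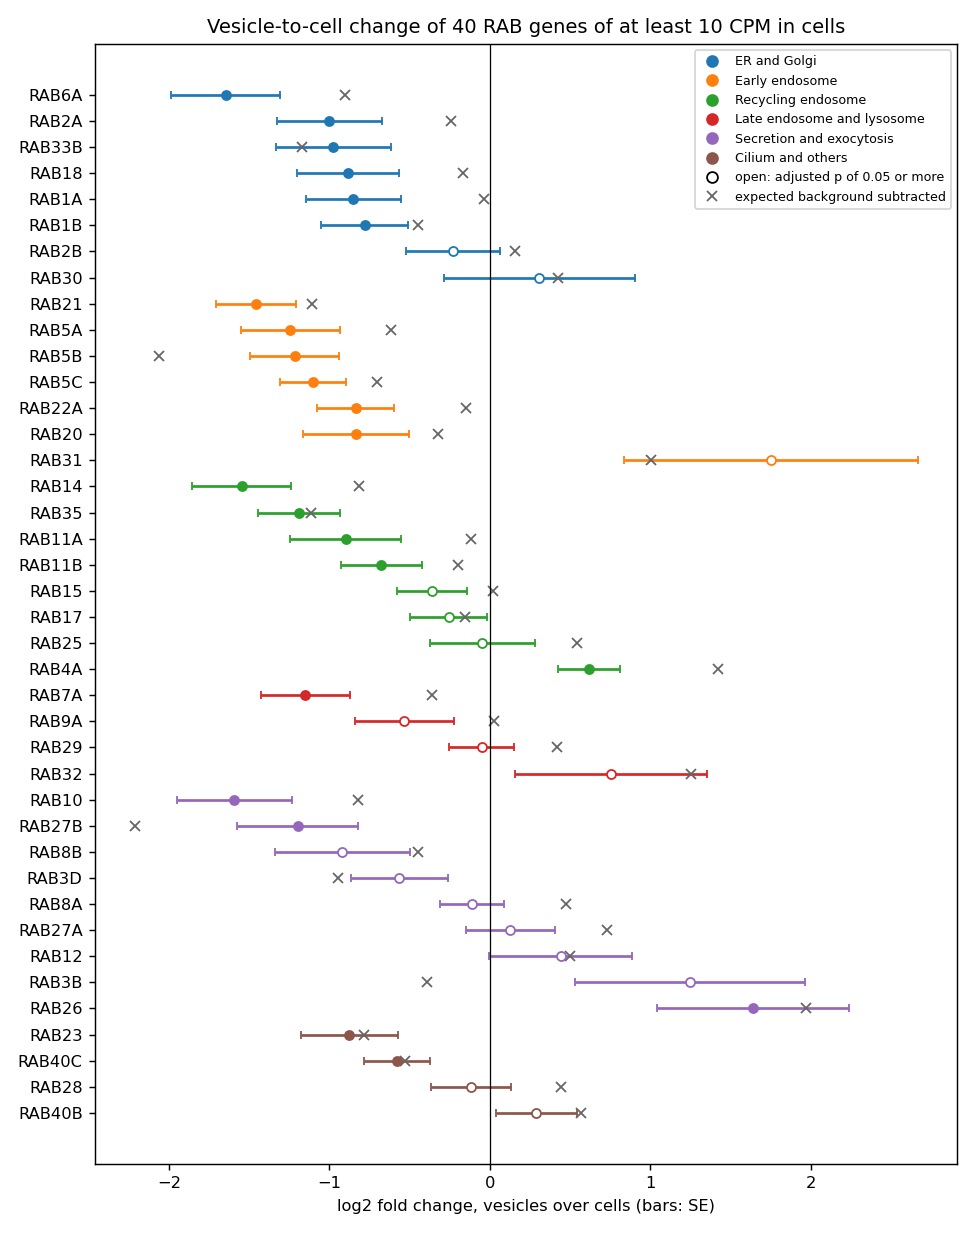
Log2 fold change of vesicles over cells (x axis) for the 40 RAB genes of at least 10 CPM in cells, grouped by role; points and bars are the edgeR estimate and its SE, open points have an adjusted p of 0.05 or more, and crosses are the estimate after subtraction of the expected background. Most filled points lie left of 0, from -1.65 for RAB6A to -0.58 for RAB40C, while RAB4A and RAB26 are the filled points on the right.

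Among the RAB genes of the ER and Golgi, 8 of 18 reached 10 CPM in cells, and 6 of these were lower in vesicles (RAB1A, RAB1B, RAB2A, RAB6A, RAB18 and RAB33B) and 0 higher. Of all genes of that level 42.2% were lower and 5.29% higher, which holds beside each role group below. With the background subtracted 1 of the 8 was lower, against 23.5% of all such genes. No role group was tested as a set. RAB6A, which directs transport at the Golgi and back from it to the ER, was at 50.6, 182 and 518 CPM in vesicles (lowest, median and highest line) and at 240, 449 and 992 CPM in cells. Vesicles were below the cells of the same line in 9 of 10 lines, COLO-201 being the exception, although the groups overlapped. The log2 fold change was -1.65 (SE 0.34, adjusted p = 0.000858), and the call held in 19 of 20 alternative settings; in the 5 lines of lowest background the adjusted p was 0.0637, within a range of 2.77e-05 to 0.0637.

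RAB1A, needed for transport from the ER to the Golgi, was at 113, 221 and 676 CPM in vesicles and at 257, 458 and 545 CPM in cells, with the highest vesicle value in COLO-201. Its log2 fold change was -0.85 (SE 0.30, adjusted p = 0.0234), a call lost without LoVo, LS1034 or WiDr. After background subtraction the value was -0.04 (adjusted p = 0.905, over alternatives 0.00153 to 0.905). RAB2A, which acts between Golgi and ER, was at 53.5, 179 and 397 CPM in vesicles, against 182, 382 and 518 CPM in cells. It was lower in vesicles in 7 of 10 lines, by a log2 fold change of -1.001 (SE 0.33, adjusted p = 0.0169), and lost the call without LoVo and with the background subtracted (-0.24, adjusted p = 0.473, over alternatives 0.00368 to 0.512). RAB18, a RAB of ER and lipid droplets, RAB1B and RAB33B had log2 fold changes of -0.88, -0.78 and -0.98, and none of the 3 was called with the background subtracted (adjusted p of 0.639, 0.377 and 0.289). RAB2B (-0.23) and RAB30 (0.31) were not called.

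In the early endosome group all 7 members reached 10 CPM in cells, and 6 of them were lower in vesicles and 0 higher, beside 42.2% and 5.29% of all genes of that level. With the background subtracted 2 of the 7 were lower, against 23.5% of all such genes. RAB5A, which drives fusion of early endosomes, was at 16.5, 61.4 and 178 CPM in vesicles and at 87.4, 146 and 241 CPM in cells. Vesicle values were lower in 8 of 10 lines with overlapping ranges, and the log2 fold change was -1.24 (SE 0.31, adjusted p = 0.00324), not called without LoVo or after background subtraction (-0.62, adjusted p = 0.104, over alternatives 0.000768 to 0.320). Its paralogs RAB5B and RAB5C were lower in all 10 lines, with log2 fold changes of -1.22 (SE 0.28, adjusted p = 0.00175) and -1.10 (SE 0.21, adjusted p = 0.000415). With plain library-size CPM, without TMM scaling, each of these paralogs was lower in 8 lines. With the background subtracted RAB5B was still called (adjusted p = 0.0367) and RAB5C was not (adjusted p = 0.0750); upper-quartile scaling gave 0.209 and 0.157.

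RAB21, which carries integrins into endosomes, was outside the rule for named genes and is given because its call held in 20 of 20 alternative settings. It was at 33.2, 61.7 and 177 CPM in vesicles and at 114, 163 and 343 CPM in cells. Each line's vesicles were below its cells, by a log2 fold change of -1.46 (SE 0.25, adjusted p = 0.000182), and subtraction of the background left -1.11 (adjusted p = 0.00776, over alternatives 6.61e-06 to 0.0338). RAB22A, which sorts endosomal cargo, was at 49.5, 119 and 307 CPM in vesicles, against 74.0, 220 and 508 CPM in cells. It was lower in 9 of 10 lines, and in 7 with plain library-size CPM (log2 fold change -0.84, SE 0.24, adjusted p = 0.00831). The call was lost without LoVo and with the background subtracted (-0.15, adjusted p = 0.629, over alternatives 0.00408 to 0.718).

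RAB20, a RAB of endosomes and phagosomes, spread widely in both groups, at 4.62, 26.8 and 124 CPM in vesicles and 10.3, 74.7 and 117 CPM in cells. The lowest value of both groups was in HCT 116. Its log2 fold change of -0.83 (SE 0.33, adjusted p = 0.0423) lost the call without any one of LoVo, LS1034, SNU-C1, LS513, WiDr or HCT 116. RAB31, the close paralog of RAB22A, was the only early endosomal member not called (log2 fold change 1.75, SE 0.92, adjusted p = 0.119).

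**Figure D2:**
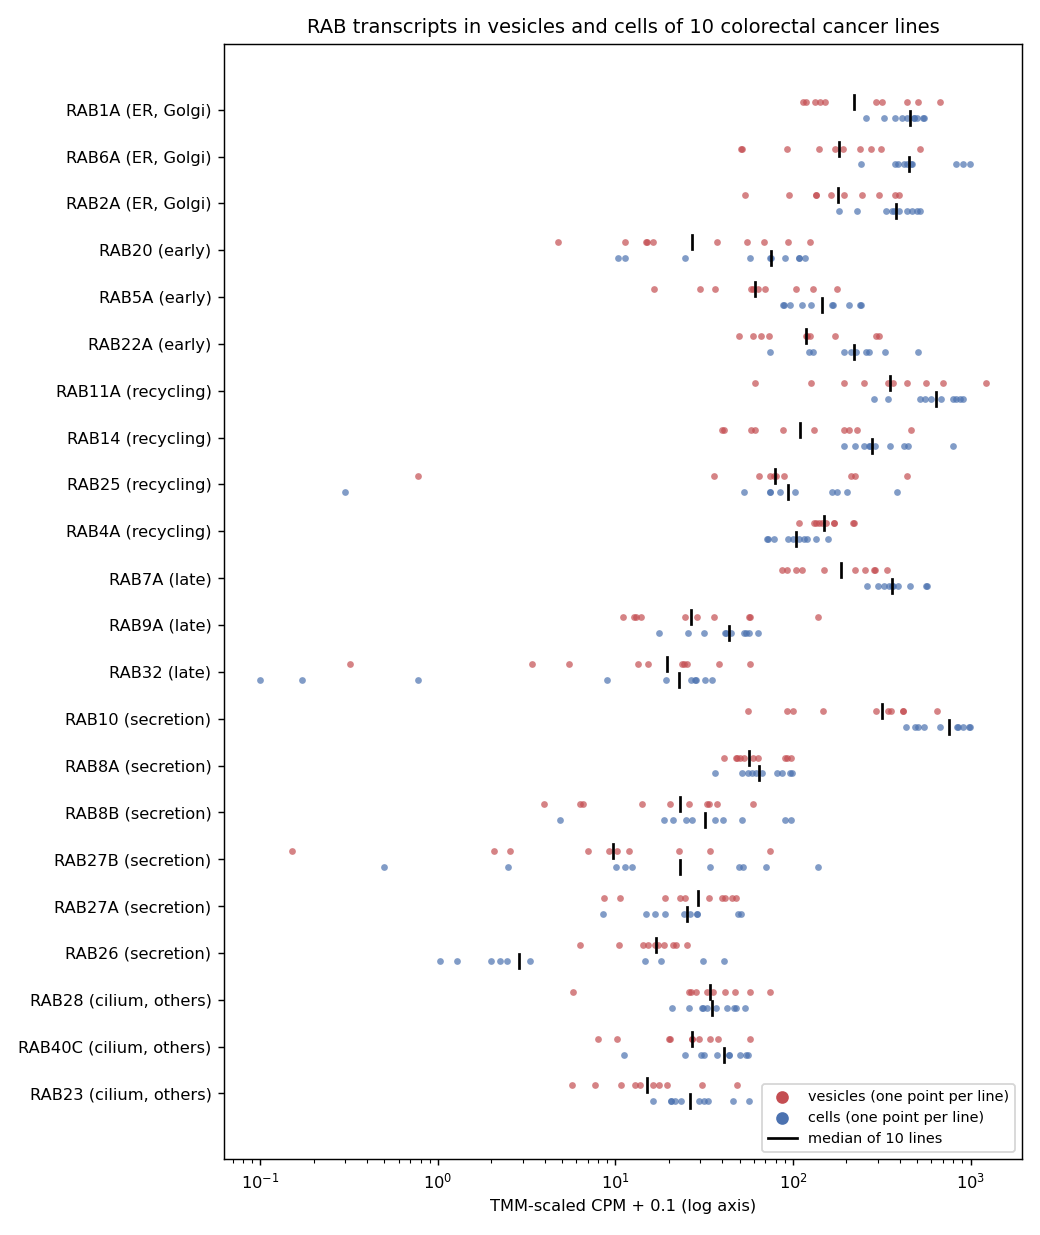
Levels (TMM-scaled CPM plus 0.1, log axis) of the 22 RAB genes named by rule, with vesicles in red above cells in blue, one point per line and a bar at the median of 10 lines. The groups overlap for every gene shown; vesicle medians lie left of cell medians for RAB6A, RAB14 and RAB10, and right of them for RAB4A and RAB26.

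The recycling endosome genes moved in both directions. Of 8 members at 10 CPM or more in cells, 1 was higher in vesicles (RAB4A) and 4 were lower (RAB11A, RAB11B, RAB14 and RAB35), beside 5.29% and 42.2% of all genes of that level. With the background subtracted 1 was higher and 2 were lower, against 10.9% and 23.5% of all such genes. RAB4A, which returns receptors quickly to the surface, was at 107, 149 and 220 CPM in vesicles, against 71.3, 104 and 157 CPM in cells. Vesicles were higher in 9 of 10 lines, and SNU-C1 had 107 CPM in vesicles and 134 CPM in cells. The log2 fold change was 0.62 (SE 0.19, adjusted p = 0.0137), and it grew to 1.42 with the background subtracted (adjusted p = 7.995e-05). Leaving out WiDr and LS123 together gave an adjusted p of 0.0664, and the 5 lines of highest background gave 0.198, in a range over alternatives of 3.17e-08 to 0.198.

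RAB14, which works between the Golgi and recycling endosomes, was at 39.9, 109 and 460 CPM in vesicles and at 194, 280 and 795 CPM in cells. It was lower in vesicles in 9 of 10 lines, COLO-201 having 460 CPM in vesicles and 445 CPM in cells. The log2 fold change was -1.55 (SE 0.31, adjusted p = 0.000667), held with the background subtracted (-0.81, adjusted p = 0.0157), and missed the threshold in the 5 lines of lowest background (0.0836, over alternatives 3.26e-05 to 0.0836). RAB35, which serves a fast recycling route, was lower in all 10 lines, and in 8 with plain library-size CPM (log2 fold change -1.19, SE 0.25, adjusted p = 0.00108). It kept the call with the background subtracted (0.0300) but not with upper-quartile scaling (0.125).

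RAB11A, the main RAB of the slow recycling route, was at 61.4, 353 and 1224 CPM in vesicles and at 284, 640 and 910 CPM in cells, so that its highest level of all was in vesicles of HT-29. The log2 fold change of -0.90 (SE 0.34, adjusted p = 0.0366) was lost without any one of LoVo, LS1034, SNU-C1, LS513, WiDr or LS123, and was -0.12 with the background subtracted (adjusted p = 0.745, over alternatives 0.00590 to 0.769). RAB11B had -0.68 (SE 0.25, adjusted p = 0.0325) and likewise was not called after subtraction (adjusted p = 0.659). RAB25, the epithelial member of the RAB11 family, was at 0.671, 79.1 and 438 CPM in vesicles, against 0.199, 93.9 and 385 CPM in cells. It was lower in vesicles in 5 of 10 lines, and in 3 with plain library-size CPM. Its log2 fold change was -0.05 (SE 0.33, adjusted p = 0.914) and turned positive under each other scaling (0.33 to 0.71). RAB15 (-0.36) and RAB17 (-0.26), both of recycling routes, were not called.

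In the late endosome and lysosome group, 1 of 4 members at 10 CPM or more in cells was lower in vesicles and 0 were higher, beside 42.2% and 5.29% of all genes of that level. RAB7A, which brings late endosomes to the lysosome, was at 86.1, 186 and 339 CPM in vesicles and at 260, 362 and 569 CPM in cells. All 10 lines had less in vesicles than in cells, also with plain library-size CPM, and the log2 fold change was -1.15 (SE 0.28, adjusted p = 0.00281). The call was lost without LoVo, and the background-subtracted value was -0.36 (adjusted p = 0.167, over alternatives 0.00104 to 0.167). RAB9A, which returns mannose 6-phosphate receptors to the Golgi, was at 10.98, 26.7 and 139 CPM in vesicles, against 17.4, 43.3 and 63.5 CPM in cells, and was not called (log2 fold change -0.53, SE 0.31, adjusted p = 0.155). It was called lower without COLO-201 (-0.74, adjusted p = 0.0398) and in the 5 lines of highest background (-1.33, adjusted p = 0.00916), in a range over alternatives of 0.00916 to 0.954. RAB32, a RAB of lysosome-related organelles, was at 0.220, 19.3 and 57.2 CPM in vesicles and at 0, 22.8 and 34.8 CPM in cells, and was not called either (0.75, SE 0.60, adjusted p = 0.297). RAB29, a partner of the kinase LRRK2, had a log2 fold change of -0.05 (SE 0.20, adjusted p = 0.845).

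Among the genes of secretion and exocytosis, 9 of 13 reached 10 CPM in cells, of which 1 was higher in vesicles (RAB26) and 2 lower (RAB10 and RAB27B). Of all genes of that level 5.29% were higher and 42.2% lower. RAB10, which delivers cargo to the plasma membrane, had the highest level per length of all members in cells. It was at 55.4, 317 and 647 CPM in vesicles and at 434, 754 and 990 CPM in cells. Every line was lower in vesicles, from 55.4 CPM in vesicles and 981 CPM in cells of SNU-C1 to 415 CPM in vesicles and 549 CPM in cells of HT-29. The log2 fold change was -1.59 (SE 0.36, adjusted p = 0.00166), and the call held in 20 of 20 alternative settings, with the background subtracted at -0.82 (adjusted p = 0.0278, over alternatives 0.000125 to 0.0495).

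RAB8A, which drives exocytosis and growth of the primary cilium, was at 40.6, 56.3 and 97.0 CPM in vesicles, against 36.2, 64.0 and 99.0 CPM in cells. Its ranges almost coincided, with a log2 fold change of -0.11 (SE 0.20, adjusted p = 0.658), and the sign turned under each other scaling (0.26 to 0.63), upper-quartile scaling calling it higher (adjusted p = 0.0111, over alternatives 0.0111 to 0.989). RAB8B was at 3.86, 23.0 and 59.6 CPM in vesicles and at 4.74, 31.7 and 97.3 CPM in cells. It was lower in 9 of 10 lines, and in 7 with plain library-size CPM, but not called (-0.92, SE 0.42, adjusted p = 0.0764). In WiDr it ran the other way, at 37.2 CPM in vesicles and 4.74 CPM in cells. It was called lower without WiDr (-1.22, adjusted p = 0.00285), without WiDr and LS123 (-1.29, adjusted p = 0.00420) and in the 5 lines of lowest background (-1.10, adjusted p = 0.0334), in a range over alternatives of 0.00285 to 0.743.

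The exosome-docking pair gave different calls. RAB27A was at 8.58, 29.03 and 47.5 CPM in vesicles, against 8.38, 25.1 and 51.1 CPM in cells, and was not called (log2 fold change 0.13, SE 0.28, adjusted p = 0.710). RAB27B was at 0.0516, 9.60 and 74.4 CPM in vesicles and at 0.399, 23.1 and 138 CPM in cells. It was lower in vesicles in 8 of 10 lines, and in 7 with plain library-size CPM, by a log2 fold change of -1.20 (SE 0.38, adjusted p = 0.0143). That call was lost without LoVo, without the line block (adjusted p = 0.305), under each other scaling (0.0799 to 0.336) and with the background subtracted (0.0714), in a range of 0.0102 to 0.336.

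RAB26, found on secretory granules, was at 6.22, 16.9 and 25.3 CPM in vesicles, against 0.925, 2.78 and 41.0 CPM in cells. Vesicle levels lay close together while cell levels fell into a low set of 6 lines up to 3.20 CPM and a high set of 4 from 14.7 CPM in WiDr to 41.0 CPM in LS123. Vesicles were higher in 8 of 10 lines, with a log2 fold change of 1.64 (SE 0.60, adjusted p = 0.0293), lost without any one of LS1034, SNU-C1, LS513 or SW480 and without the line block (adjusted p = 0.527, over alternatives 0.000139 to 0.527). RAB3B, RAB3D and RAB12, of regulated secretion and endosomal transport, had log2 fold changes of 1.25, -0.56 and 0.44 and were not called.

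Of the 4 remaining members at 10 CPM or more, RAB23 and RAB40C were lower in vesicles, and RAB28 and RAB40B were not called, beside 42.2% lower of all genes of that level. RAB23, a negative regulator of Hedgehog signalling, was at 5.62, 14.9 and 48.4 CPM in vesicles and at 16.2, 26.3 and 56.2 CPM in cells, with a log2 fold change of -0.87 (SE 0.30, adjusted p = 0.0217) that was not called without LoVo, LS1034 or LS123. RAB40C, part of a ubiquitin ligase, was at 7.92, 26.9 and 57.0 CPM in vesicles, against 11.1, 40.5 and 55.8 CPM in cells. Its fold change of -0.58 (SE 0.21, adjusted p = 0.0259) was lost without LoVo, LS513, WiDr or LS123. RAB28, a ciliary RAB, was at 5.63, 33.9 and 74.1 CPM in vesicles and at 20.8, 34.7 and 53.4 CPM in cells, and its log2 fold change of -0.12 (SE 0.25, adjusted p = 0.706) turned positive under each other scaling (0.25 to 0.62), which with upper-quartile scaling was called (adjusted p = 0.0347, over alternatives 0.0347 to 0.956). With the background subtracted RAB20, RAB23 and RAB40C were not called (adjusted p = 0.476, 0.320 and 0.412). None of RAB1A, RAB1B, RAB11A, RAB11B, RAB18, RAB20, RAB22A, RAB23, RAB27B, RAB33B and RAB40C was called under any of the 3 other scalings.

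Levels per kilobase of exonic length put the members in one scale. In cells RAB10 led with a mean of 199 CPM per kilobase, then RAB7A with 145, RAB1A with 131, RAB6A and RAB11A with 113 each, RAB14 with 81.6, RAB25 with 77.6 and RAB2A with 67.2. In vesicles RAB1A led with 87.1, then RAB10 with 78.9, RAB25 with 76.1, RAB11A with 74.97, RAB7A with 71.2, RAB4A with 48.1, RAB6A with 41.8 and RAB2A with 37.1. RAB4A moved most among these, being the sixth in vesicles and the 12th in cells (31.7). The order of all 60 members was otherwise much alike (Spearman rho 0.95 across genes). Whether the vesicle levels from RAB1A to RAB7A differed from each other was not tested, and SDs over lines were large against the means (426 ± 341 CPM for RAB11A).

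Close paralogs were compared within each library, where scaling cancels, as the difference between their log2 vesicle-to-cell ratios. There were 16 pairs with both genes at 10 CPM or more in cells, tested by a two-sided exact sign-flip permutation test over the 10 lines, with adjustment over the 16. Past the threshold were 5 pairs. RAB8A had the higher ratio than RAB10 in 10 of 10 lines, by 1.52 ± 1.13 log2 units (SD, n = 10; exact p = 0.00195, adjusted p = 0.0156). The lines ran from 0.33 in HT-29 to 3.98 in SNU-C1, and the difference held with the background subtracted (1.32, adjusted p = 0.0313) and without WiDr and LS123 (1.49, adjusted p = 0.0417).

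RAB25 stood above both of its relatives. RAB11B minus RAB25 was -0.67 ± 0.46 (SD, n = 10), below 0 in 10 of 10 lines (exact permutation p = 0.00195, adjusted p = 0.0156), from -1.56 in COLO-201 to -0.22 in LoVo. RAB11A minus RAB25 was -0.91 ± 0.64 (lower in 9 of 10 lines, exact permutation p = 0.00391, adjusted p = 0.0208), with HT-29 at 0.35. In SW480 RAB11B minus RAB25 was -1.32 and RAB11A minus RAB25 -0.99. RAB25 had 13 vesicle counts there (14.9 expected from background) and 6 cell counts, so its vesicle level in that line was not above background. Neither of the 2 was past the threshold with the background subtracted (adjusted p = 0.131 and 0.184). Without WiDr and LS123 RAB11A minus RAB25 was -0.97 and no longer past the threshold (adjusted p = 0.05).

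RAB22A minus RAB31 was -2.71 ± 2.93 (SD, n = 10), below 0 in 8 of 10 lines (exact permutation p = 0.0137, adjusted p = 0.0438). The 4 largest differences, from -6.89 in WiDr to -4.84 in LS513, were in lines whose cells held under 1 CPM of RAB31, and subtracting the background gave -1.19 (adjusted p = 0.257). It stayed past the threshold when COLO-201 or LS123 was left out and lost it without any one of the other 8 lines. RAB27A minus RAB27B was 1.31 ± 1.34 (higher in 8 of 10 lines, exact permutation p = 0.00781, adjusted p = 0.0313), led by WiDr with 4.16 and SNU-C1 with 2.62. In the permutation test it was 3.86 with the background subtracted (adjusted p = 0.0313) and 0.97 without WiDr and LS123 (adjusted p = 0.0833). RAB27B had fewer vesicle counts than expected from background in SNU-C1 (29, 38.2 expected), WiDr (29, 48.6 expected), LS123 (36, 41.5 expected) and SW480 (1, 4.49 expected). Subtraction set these counts to 0, so the size of 3.86 rests there on the prior count. Leaving out any one of 8 lines ended the call of RAB27A minus RAB27B too, and leaving out COLO-201 or LS1034 did not. RAB8A minus RAB10 and both RAB25 pairs kept the call whichever line was left out. The RAB5 paralogs differed by -0.14 to -0.03 on average with SDs of 0.79 to 1.35, and RAB1A minus RAB1B was -0.07 ± 1.06 (SD, n = 10), so no difference was detectable among these; the signs of RAB5A minus RAB5B, RAB5A minus RAB5C and RAB1A minus RAB1B turned with the background subtracted.

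**Figure D3:**
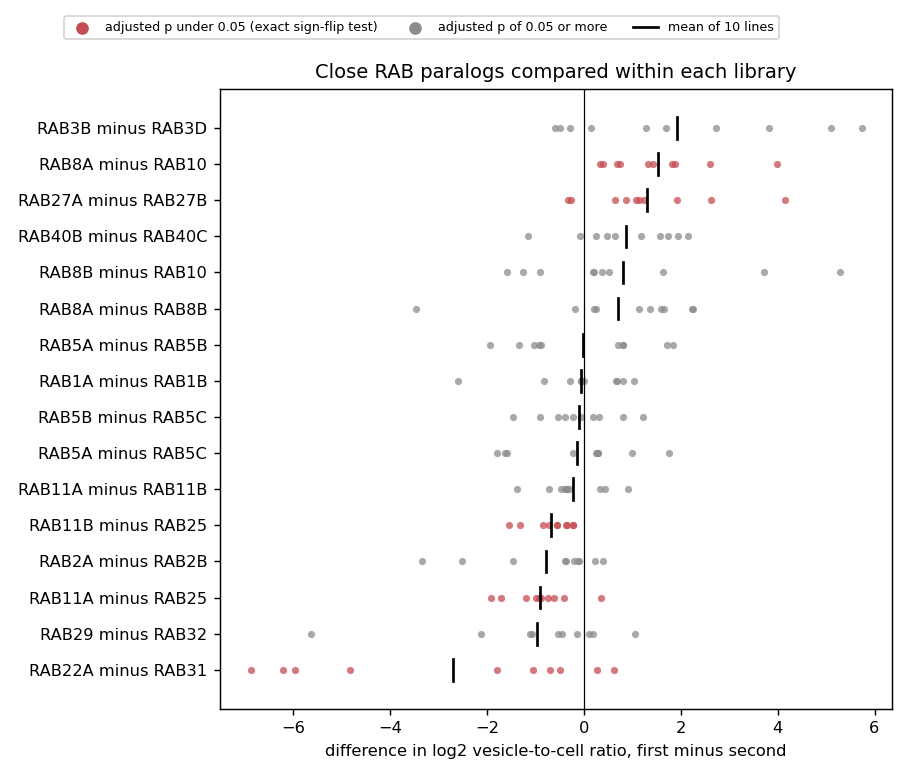
Difference between 2 paralogs in log2 vesicle-to-cell ratio (x axis, first minus second) for 16 pairs, one point per line and a bar at the mean of 10 lines; red marks pairs with an adjusted p under 0.05 in the exact sign-flip test. All 10 points of RAB8A minus RAB10 lie right of 0 and all 10 of RAB11B minus RAB25 left of it.

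RAB13, which acts at tight junctions, is not a member but is the relative of RAB8A, RAB8B and RAB10, and it differed from all 3. It was at 304, 2523 and 6543 CPM in vesicles and at 14.4, 43.1 and 55.5 CPM in cells, higher in vesicles in 10 of 10 lines. Its log2 vesicle-to-cell ratio exceeded that of RAB8A by 6.003 ± 1.24, that of RAB8B by 6.71 ± 2.17 and that of RAB10 by 7.52 ± 1.26 (SD, n = 10). Each difference was positive in 10 of 10 lines, with an exact sign-flip permutation p of 0.00195 before and after adjustment over the 3, the smallest that 10 lines allow. RAB13 was taken for this comparison with its high vesicle level in these data already known, so the p is no independent support. With the background subtracted the differences were 6.26, 7.06 and 7.57.

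**Figure D4:**
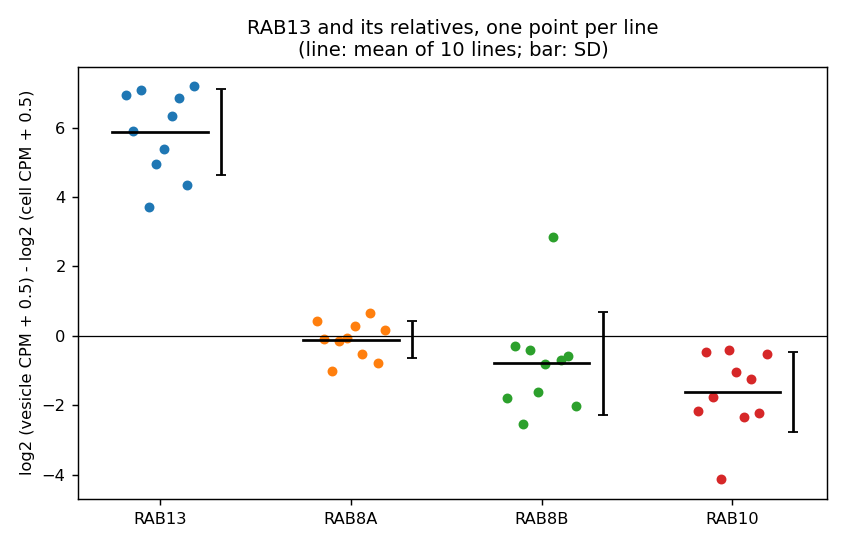
Log2 vesicle CPM minus log2 cell CPM (0.5 added to each) for RAB13, RAB8A, RAB8B and RAB10, one point per line, with the mean of 10 lines and its SD. RAB13 lies apart from its 3 relatives, whose points lie around or below 0 except RAB8B in WiDr.

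The mRNA of RAB13 is known to carry a GA-rich element in its 3′ untranslated region that sends it to cell protrusions, so the same feature was sought in its relatives. For each gene the 30-base window of the 3′ untranslated region with most GA dinucleotides is shown, 5′ to 3′ in the sense of the mRNA, with each GA in capitals. The windows come from GENCODE 29 principal transcripts, and the coordinates are of that annotation's build, GRCh38, not of the hg19 build of the counts. They lie within one exon of the 3′ untranslated region, at chr1:153981905-153981934 on the minus strand for RAB13, and on the plus strand at chr19:16132566-16132595 for RAB8A, chr15:63265071-63265100 for RAB8B and chr2:26136259-26136288 for RAB10.
RAB13: gGAaGAGAGAgGAaggGAGAaggGAGAgGA
RAB8A: ttcaGAGAGAGAGAggGAgtcaaggtgtGA
RAB8B: ggGAtaaaacaGAgggGAtGAggGAaatGA
RAB10: taaaaaagGAaaagcagGAagGAgGAgtGA
RAB13 held 10 GA in its window, RAB8A 7, RAB8B 6 and RAB10 5. As many GA or more were held by 0.758% of 9764 genes of at least 10 CPM in cells for RAB13, by 24.4% for RAB8A, by 53.3% for RAB8B and by 78.1% for RAB10. The 40 members of that level held 2 to 8, with a median of 6, which is also the median of all these genes. Across members the number of GA and the log2 fold change had a Spearman rho of 0.15, against -0.11 across the 9764 genes, and the 74 genes with 10 GA or more had a median log2 fold change of -0.39, against -0.54 for all. Members had long 3′ untranslated regions, with a median of 2308 bases against 1201 bases for all these genes, and longer ones went with lower fold changes to a like extent (rho -0.26 across members and -0.23 across genes). Genes share libraries and depth in these correlations, and a window of letters is no binding site.

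The 15 tested members with less than 10 CPM in cells held 8 called higher in vesicles, 0 lower and 7 not called. Of all 5106 tested genes of that level, 74.3% were higher and 0.372% lower, so a call of this kind is the rule there. RAB4B (log2 fold change 1.10, adjusted p = 0.0174), a recycling RAB, and RAB37 (2.02, adjusted p = 0.00220), of secretory granules, were the 2 of the 8 that reached the filter in every cell library. RAB37 was at 7.84, 17.0 and 29.5 CPM in vesicles, against 1.43, 2.83 and 15.01 CPM in cells, and kept its call with the background subtracted (1.995, adjusted p = 0.0123), which RAB4B did not (adjusted p = 0.348). The other 6 were RAB3A, RAB9B, RAB33A, RAB34, RAB42 and RAB44, of which RAB3A was not called after subtraction (adjusted p = 0.196) and the other 5 could not be fitted after it. RAB34 and RAB44 were the 2 members whose vesicle libraries all lay above all cell libraries, as 8.57% of all genes did. RAB34 had 332 counts in the 10 vesicle libraries and 18 in the 10 cell libraries, with 380 expected from background in vesicles. RAB44 had 549 counts in vesicles and 6 in cells, with 456 expected. RAB6C and RAB6D are near-identical copies of RAB6A whose reads can be exchanged with it, so their values are uncertain, and the strand setting of the counting is not given in the sources used here.

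Differences between lines were compared across the compartments. For the 26 members with at least 10 CPM in some cell library and a cell range of at least 4-fold, the level in vesicles and that in cells of the same line had a median Spearman rho of 0.61 over the 10 lines, from -0.32 for RAB30 to 0.82 for RAB15. For 6182 genes chosen alike the median was 0.48. The line with the highest level was the same in vesicles and cells for 12 of the 26 members and for 1996 of the 6182 genes. These values are descriptions, since the lines share a kit within each compartment.

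The 6 members that varied most between cell libraries were RAB25, RAB31, RAB27B, RAB3B, RAB32 and RAB38. RAB25 was nearly lacking in SW480, with 0.671 CPM in vesicles and 0.199 CPM in cells, and highest in LS513 with 438 CPM in vesicles and 385 CPM in cells. Its Pearson r over lines was 0.91 and fell to 0.16 without the 2 lines farthest from the median, so the relation rested on those. RAB27B followed the same ends, with 0.0516 CPM in vesicles and 0.399 CPM in cells of SW480, against 74.4 CPM in vesicles and 138 CPM in cells of LS513. RAB31 was highest in HCT 116 with 158 CPM in vesicles and 199 CPM in cells, then in LS123 with 58.2 CPM in vesicles and 134 CPM in cells, and in LoVo with 29.5 CPM in vesicles and 44.1 CPM in cells. The line WiDr departed from this order, with 21.5 CPM of RAB31 in vesicles and 0.465 CPM in cells. Of its 90 vesicle counts of RAB31, 53.3 were expected from background, against 5.28 of 719 in HCT 116.

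RAB38, the partner of RAB32 in melanosome formation, was found mainly in HCT 116 with 30.1 CPM in vesicles and 33.7 CPM in cells, and in LS123 with 10.96 CPM in vesicles and 13.7 CPM in cells. All other lines were at or below 2.19 CPM in vesicles and 1.55 CPM in cells. RAB32 was low in the same lines: HCT 116 had 0.220 CPM in vesicles and 0.0725 CPM in cells, and LS123 had 5.34 CPM in vesicles and 0 counts in cells, which allows up to 0.119 CPM (3 counts). Of the 19 vesicle counts of RAB32 in LS123, 16.3 were expected from background. RAB32 was also low in COLO-201, at 3.29 CPM in vesicles and 0.673 CPM in cells, where RAB38 was at 0.358 CPM in vesicles and 0.354 CPM in cells. RAB3B, a RAB of regulated exocytosis, was also highest in the cells of LS123 and HCT 116, with 49.2 CPM in vesicles and 89.9 CPM in cells of LS123 and 46.6 CPM in vesicles and 88.5 CPM in cells of HCT 116, while its highest vesicle level, 53.0 CPM, was in WiDr. Background was expected to give 104 of its 222 vesicle counts in WiDr, 95.3 of 175 in LS123 and 11.7 of 212 in HCT 116. As HCT 116 and LS123 may not be independent, the patterns of RAB38, RAB32 and RAB3B may stand for a single line.

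**Figure D5:**
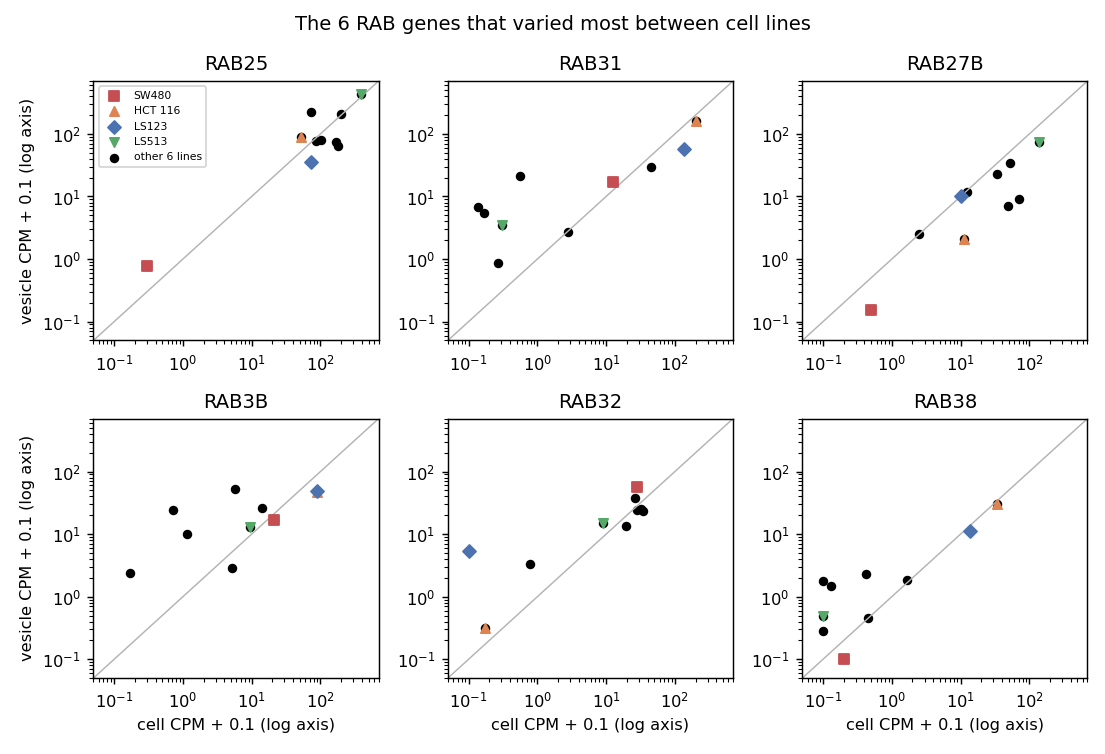
Vesicle level against cell level (CPM plus 0.1, both axes log) of the 6 RAB genes that varied most over cell libraries, one point per line, with a grey line at equal levels. RAB25 is near 0 in SW480 in both compartments, and RAB38 lies above 10 CPM in HCT 116 and LS123.

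The genes that act on RAB proteins were taken in 4 lists. Among those with 10 CPM or more in cells, 5 of 10 prenylation and chaperone genes, 13 of 32 exchange factors, 15 of 30 GTPase-activating proteins and 14 of 40 effectors were lower in vesicles, with median log2 fold changes of -0.75, -0.33, -0.71 and -0.33. Of all genes of that level 42.2% were lower, with a median of -0.53, so these shares lay on both sides of the background. Of 10 prenylation and chaperone genes tested, 0 were higher and 5 lower in vesicles, with a median log2 fold change of -0.75. Of all genes tested 28.6% were higher and 28.1% lower. ICMT, which methylates prenylated cysteines, was at 29.7, 62.0 and 102 CPM in vesicles and at 118, 165 and 217 CPM in cells, with no overlap (log2 fold change -1.53, SE 0.20, adjusted p = 1.99e-05). CHML, an escort protein that presents RABs for prenylation, had -1.51 (SE 0.27, adjusted p = 0.000287). Both kept the call in 20 of 20 alternative settings.

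Of 38 exchange factors 6 were higher and 13 lower (median -0.11). Beside this and the 2 lists below, 28.6% of all genes tested were higher and 28.1% lower. DENND4C, an exchange factor for RAB10, was lower in all 10 lines (-2.02, SE 0.26, adjusted p = 1.77e-05), and DENND2A, of the DENN-domain exchange factors, was called higher (log2 fold change 5.22), with 842 counts in the vesicle libraries, 138 in the cell libraries and 505 expected from background in vesicles. Of 34 GTPase-activating proteins 3 were higher and 15 lower (median -0.67). TBC1D14 was lower in all 10 lines (-1.60, SE 0.18, adjusted p = 6.01e-06), and TBC1D10C was called higher (log2 fold change 7.99), with 1095 vesicle counts, 58 cell counts and 568 expected. Of 49 effectors 11 were higher and 14 lower (median 0.04). The effectors with the smallest adjusted p, the exocytosis genes RPH3A (log2 fold change 7.22) and RIMS1 (6.71), stood at 932 vesicle counts, 34 cell counts and 655 expected from background for RPH3A, and at 443 vesicle counts, 33 cell counts and 635 expected for RIMS1, which had fewer vesicle counts than expected. Neither could be fitted after background subtraction. The counts of the filter were reached in 0 cell libraries by RPH3A, in 1 by TBC1D10C, in 2 by RIMS1 and in 4 by DENND2A. These 4 genes passed it with the help of vesicle counts and could more easily come out as higher there. The edgeR test with the background subtracted gave DENND2A 4.61 (adjusted p = 0.000386) and TBC1D10C 8.13 (adjusted p = 0.000182). It used the same filter, so the same limit holds for these calls. With the background subtracted, 3 prenylation and chaperone genes, 7 exchange factors, 7 GTPase-activating proteins and 8 effectors were lower, and 0, 2, 1 and 4 were higher in the same order of lists. These came from 10, 38, 34 and 46 genes tested, and of all genes 19.3% were then lower and 15% higher.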

How the data were processed

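The authors deposited raw, unnormalised counts for 17113 protein-coding genes in 20 libraries, and all count columns matched the title of 1 library. STAR, featureCounts and hg19 are named per the submitters' processing notes; versions, annotation and strand setting are not given in the sources used here. Differences between vesicles and cells were tested in edgeR 4.0.16 (R 4.3.3) by its robust quasi-likelihood fit, with TMM scaling, filterByExpr and cell line as a block, and Benjamini-Hochberg adjustment over all 15130 genes tested (threshold 0.05). A log2 fold change sets vesicles over cells, and its SE is its size over the root of the F statistic. Libraries of a number come from the same line per the labels, and the deviations of a line's 2 libraries from the compartment means correlated at 0.118 to 0.580. Paralog pairs were tested on log2 CPM with a prior count of 2. The expected background was a Poisson model, log-linear in exonic length and GC content, fitted per library on 2037 genes of at most 10 counts in every cell library, members left out. Lengths, GC content and 3′ untranslated regions came from GENCODE 29 by symbol (16827 genes, all 60 members).

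The rule for named genes took the 3 members of each role group with the highest level per length in cells, every member higher in vesicles with at least 10 CPM in cells, RAB5A, RAB7A, RAB11A, RAB27A and RAB27B, the 6 members that varied most over cell libraries, and 2 genes of each pathway list by adjusted p. RAB21, RAB34, RAB37 and RAB44 and the paralogs RAB5B, RAB5C, RAB11B and RAB35 were named after their values were seen. Members, lists and tests were chosen with earlier results of these data known. Alternatives were library size, upper-quartile and DESeq2 1.42.0 size factors, the DESeq2 test, no filter, no block, background subtraction, subsets of lines and each line left out. The scripts were checked on simulated counts. A gene with 0 counts could still be present at up to 3 counts, which is 0.136 to 0.939 CPM in vesicles and 0.0957 to 0.157 CPM in cells on the TMM scale of the levels; such limits cover counting error only.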

Additional observations from a re-analysis of the deposited data

Results flagged for a closer look

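In 46 groups of 10 libraries (vesicles and cells of the 22 members named by rule, and the summed share of all members in each), the gap of the end value to the next was set against the range of its group on a log2 scale by Dixon's test, which flags about 1 in 20 groups by chance. There were 4 such values. RAB28 had 5.63 CPM in SNU-C1 vesicles, against a median of 33.9 CPM over vesicle libraries. RAB40C had 11.1 CPM in HCT 116 cells, against a median of 40.5 CPM over cell libraries. RAB25 had 0.671 CPM in SW480 vesicles and 0.199 CPM in SW480 cells, against medians of 79.1 CPM in vesicles and 93.9 CPM in cells.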

How the results depend on the processing

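The number of RAB genes higher in vesicles (10) was 22 with upper-quartile scaling, 17 with the DESeq2 test, 3 with the background subtracted, 3 in the 5 lines of lowest background and 6 without WiDr and LS123. These were 40%, 30.9%, 6.25%, 5.66% and 10.9% of the members tested, against 46%, 41.4%, 15%, 19.5% and 25.5% of all genes. The number lower (21) was 9 with library size alone, 4 with upper-quartile scaling, 9 with DESeq2 size factors, 11 with the DESeq2 test, 6 with the background subtracted, 5 in the 5 lines of lowest background and 13 without WiDr and LS123. Of the members tested these were 16.4%, 7.27%, 16.4%, 20%, 12.5%, 9.43% and 23.6%, against 16.3%, 11.6%, 18.5%, 20.8%, 19.3%, 19.1% and 25.2% of all genes. Without the replicate block, which stands for the pairing by line, 11 members were lower and 7 higher, beside 22.7% and 22.9% of all genes. Of the lower, RAB1A, RAB11A, RAB11B, RAB18, RAB20, RAB22A, RAB23, RAB27B, RAB33B and RAB40C then missed the threshold of the edgeR test. Of the higher, RAB9B, RAB26 and RAB42 missed it (adjusted p of 0.0769 to 0.527 over both). With each line left out in turn the numbers ran from 7 to 13 higher and from 7 to 22 lower, and the median log2 fold change (-0.23) from -0.28 to 0.13. The shares of all genes then ran from 25.9% to 31.5% higher and from 15.8% to 28.4% lower, and their median from -0.03 to 0.35. The RAB median was 0.31 with library size, 0.55 with upper-quartile scaling, 0.14 with DESeq2 size factors and 0.15 with the DESeq2 test. For all genes these medians were 0.48, 0.76, 0.38 and 0.39. The number of paralog pairs past the threshold (5) was 2 with the background subtracted, 3 without WiDr and LS123 (RAB8A minus RAB10, RAB11B minus RAB25 and RAB8A minus RAB8B), and 3 to 5 with a line left out. The 3 differences of RAB13 from its relatives kept direction and call in all alternatives run, except that 5 lines cannot give an exact p under 0.0625. The cause of these shifts was not tested.

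Among the named genes and pairs that were called, RAB40C (0.16) and RAB11B (0.066) turned under upper-quartile scaling. RAB28 had 0.34 with library size, 0.62 with upper-quartile scaling, 0.25 and 0.26 with DESeq2 size factors and test, 0.027 without the replicate block, 0.45 with the background subtracted, 0.30 in the 5 lines of lowest background, and -0.21 to 0.22 with a line left out. RAB25 had, in the same order and without the block setting, 0.44, 0.71, 0.33, 0.33, 0.54 and 0.79, with 0.25 without WiDr and LS123 and -0.24 to 0.31 with a line left out. RAB8A had 0.36, 0.63, 0.26, 0.26, 0.47 and 0.21, with 0.041 without WiDr and LS123 and -0.21 to 0.18 with a line left out. RAB9A had 0.21 with upper-quartile scaling, 0.029 with the background subtracted and 0.28 in the 5 lines of lowest background. RAB27A had -0.23 in those 5 lines, -0.14 without WiDr and LS123, and -0.0033 to 0.42 with a line left out. With the background subtracted RAB1A minus RAB1B was 0.46, RAB5A minus RAB5B 2.16, RAB5A minus RAB5C 0.079 and RAB11A minus RAB11B 0.15. In the 5 lines of lowest background these were 0.31, 0.83, 0.60 and 0.0064, with RAB2A minus RAB2B at 0.0024 and RAB8B minus RAB10 at -0.39. RAB5A minus RAB5B was 0.25 without WiDr and LS123. With a line left out RAB1A minus RAB1B ran from -0.19 to 0.21, RAB5A minus RAB5B from -0.23 to 0.18, RAB5A minus RAB5C from -0.35 to 0.044 and RAB5B minus RAB5C from -0.26 to 0.039. Vesicle depth limits low levels: in SNU-C1 vesicles, 3 counts are 0.939 CPM on the TMM scale.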
